A study of Bos taurus with 2 samples.

Results

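PIWI proteins are germ line members of the Argonaute family, and with the factors that make and finish their guide RNAs they form the set described here. The set was chosen by gene symbol and holds 9 genes (PIWIL1, PIWIL2, PIWIL4, MAEL, MOV10L1, ASZ1, GTSF1, HENMT1 and PLD6) of the 24616 listed for each library. Each symbol matched 1 row. RNA had been sequenced from bovine seminiferous tubules, where sperm are made in the testis. There was 1 library from a calf aged 3 months and 1 from a calf aged 9 months. Pieces of tubule had been cut from removed testes and frozen, and the labels name no breed, genotype or treatment for either calf. With 1 library per age, calf and age cannot be told apart, no test across samples could be made.

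piRNAs are small RNAs that guide PIWI proteins to transposon transcripts and other targets in germ cells. Long single-stranded precursors are unwound and cut at the surface of mitochondria, loaded into a PIWI protein, trimmed, and methylated at their 3′ end. In the mammalian testis, PIWIL2 and PIWIL4 are known from fetal and early postnatal germ cells, where piRNAs direct DNA methylation of transposons. PIWIL1 is known from spermatocytes at the pachytene stage of meiosis and from round spermatids, which hold a separate and very abundant piRNA population.

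Of the 9 genes, 7 were higher in the 9-month library, none was lower and 2, PIWIL4 and HENMT1, lay within 2-fold. The differences ran from 1.02-fold for PIWIL4 to 346-fold for PIWIL1. A gene was called higher or lower when its scaled counts differed at least 2-fold and the 95% exact counting interval of the ratio, given in brackets, left out 1. By that rule 28.0% of the 18025 genes with at least 10 counts over both libraries were higher in the 9-month library and 22.8% were lower. A further 47.6% lay within 2-fold, and 1.60% lay beyond 2-fold with an interval that held 1. At least 4-fold higher were 6 of the 9, against a background of 17.6%, and at least 16-fold higher were 4 of the 9, against 8.62%. The median log2 ratio of the 9 genes was 3.65, and that of all measured genes 0.02. Together the 9 genes held 1828 counts, or 0.00486% of all counts, at 3 months (95% exact binomial limits of 0.00464 and 0.00509). At 9 months they held 29554 counts, or 0.0992% (0.0981 and 0.1004). Tubule tissue is a mixture, so fewer cells of a type and less RNA per cell cannot be told apart.

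The libraries held 37600534 and 29782234 counts, and all 9 genes had at least 30 counts in each. Markers of germ cell stages set the libraries far apart. The 18 spermatid markers summed to 11.4 CPM (counts relative to the scaled library size) in the 3-month library, with SPACA4 and ODF1 at 0 counts, and to 3707 CPM in the 9-month library. All 18 were higher, as were all 18 markers of meiotic prophase, whose sums were 122 and 1545 CPM. The 7 markers of late spermatocytes found in the tables, with NME8 at 0 counts at 3 months, summed to 17.3 and 702 CPM, and all 7 were higher. Of 11 spermatogonial markers 5 were higher and 5 lay within 2-fold, and NANOS2, at 10 and 3 counts, had an interval that held 1. Their sums were 72.3 and 135 CPM, and 9 of them were higher with plain library totals. The somatic lists had members on both sides. The 12 Sertoli cell markers summed to 9328 and 2226 CPM, with 7 lower, 3 within 2-fold and 2 higher, among them CLDN11 at 49.6-fold. With plain library totals 6 of them were lower and 3 higher. The 8 markers of Leydig cells, which lie outside the tubules, summed to 17913 and 2794 CPM, with 7 lower and 1 higher. The 6 myoid markers summed to 451 and 699 CPM, with 2 higher and 2 lower, but 3 higher and 0 lower with plain library totals or reference genes. The 5 endothelial markers summed to 158 and 115 CPM, with 4 lower (2 with plain library totals) and VWF higher at 5.91-fold. The 6 leukocyte markers summed to 324 and 162 CPM, with 3 lower (1 with plain library totals) and AIF1 higher at 3.30-fold. The part of these shifts in cell makeup in the differences below was not tested.

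**Figure D1:**
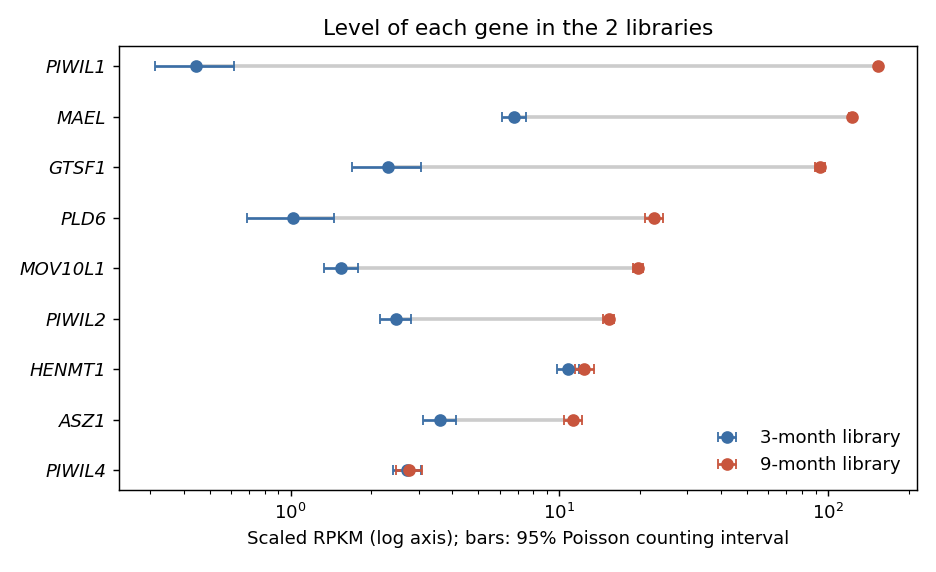
Level of each gene in scaled RPKM on a log axis, with blue points for the 3-month library and red points for the 9-month library, bars for 95% Poisson counting intervals, and a grey line joining the libraries. PIWIL1 is the lowest gene in the 3-month library at 0.445 and the highest in the 9-month library at 154, while the points of PIWIL4 coincide.

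Among the PIWI genes themselves, the make-up differed between the libraries. PIWIL1, the PIWI protein of spermatocytes and round spermatids, had 37 counts at 3 months and 13877 at 9 months. Per length this was 0.445 and 154 scaled RPKM (CPM per kilobase of the listed gene length), a 346-fold difference [251 to 492]. PIWIL1 stood at the 16.6th percentile of measured genes for level in the 3-month library and at the 97.4th in the 9-month library. Its log2 ratio of 8.36 lay at the 99.0th percentile of all measured genes.

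PIWIL2, which is known from fetal germ cells through to spermatids and takes part in amplifying piRNAs, went from 230 to 1548 counts. Its level was 2.46 and 15.3 scaled RPKM, 6.21-fold higher [5.40 to 7.16] in the 9-month library. PIWIL4, the nuclear PIWI protein linked to transposon methylation in fetal male germ cells, had 271 and 299 counts. Its level was 2.72 and 2.77 scaled RPKM, a ratio of 1.02 [0.861 to 1.20], which was the smallest difference in the set. The direction of PIWIL4 was not fixed by the data: the ratio was 0.948 with upper-quartile scaling and 1.39 with plain library totals.

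PIWIL3, the remaining PIWI gene of cattle, is known mainly from oocytes and is not among the 9. It was low in both libraries, with 20 and 141 counts, or 0.237 and 1.54 scaled RPKM, and was 6.51-fold higher [4.06 to 10.98] in the 9-month library. Its ratio could not be separated from that of PIWIL2 at this depth, since the PIWIL2 ratio was 0.955 times that of PIWIL3 [0.554 to 1.57].

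In the 3-month library, the level of PIWIL2 per length was 5.52 times that of PIWIL1 [3.89 to 8.04], and PIWIL4 was 6.10 times PIWIL1 [4.32 to 8.85]. PIWIL4 and PIWIL2 did not differ there beyond counting error, with a level ratio of 1.10 [0.923 to 1.32]. In the 9-month library the order was turned round, with PIWIL1 at 10.1 times PIWIL2 [9.57 to 10.6] and 55.7 times PIWIL4 [49.7 to 62.7]. Of the summed scaled RPKM of the 4 PIWI genes, PIWIL4 held 46.4% and PIWIL2 42.0% in the 3-month library. PIWIL1 held 7.60% and PIWIL3 4.04% there. In the 9-month library PIWIL1 held 88.7%, PIWIL2 8.80%, PIWIL4 1.59% and PIWIL3 0.887%. Comparisons of level between genes depend on the listed gene lengths, a limit set out below.

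**Figure D2:**
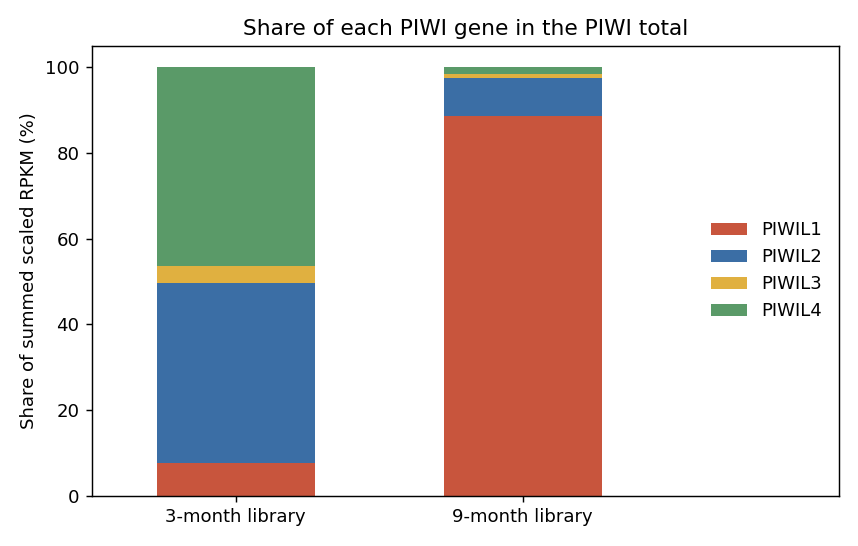
Share of each PIWI gene, in percent, of the summed scaled RPKM of PIWIL1, PIWIL2, PIWIL3 and PIWIL4 in each library, drawn as stacked bars from 0. PIWIL4 and PIWIL2 fill most of the 3-month bar, at 46.4% and 42.0%, and PIWIL1 fills 88.7% of the 9-month bar.

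The Argonaute genes of the AGO branch, which bind microRNAs in all tissues, gave a measure from the same protein family outside the germ line pathway. AGO1 and AGO2 are listed under the older symbols EIF2C1 and EIF2C2. The 4 AGO genes summed to 18.2 scaled RPKM at 3 months and 28.4 at 9 months, whereas the 4 PIWI genes summed to 5.86 and 174. The PIWI sum was thus 0.321 times the AGO sum at 3 months and 6.12 times at 9 months. These sums too depend on the listed gene lengths. AGO2 was 4.74-fold higher [4.28 to 5.27] in the 9-month library and AGO4 4.03-fold lower [3.32 to 4.92], while AGO1 and AGO3 lay within 2-fold. PIWIL4 could not be separated from AGO3 in its ratio, which was 0.808 times that of AGO3 [0.611 to 1.07].

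Both genes that act on the precursors themselves, MOV10L1 and PLD6, were more than 10-fold higher in the 9-month library. MOV10L1, the germ cell RNA helicase that binds piRNA precursors and is needed for their entry into processing, had 181 and 2494 counts. Its level was 1.55 and 19.7 scaled RPKM, 12.7-fold higher [10.9 to 14.9] in the 9-month library, and it was the middle gene of the set by log2 ratio. In the RefSeq annotation of assembly ARS-UCD2.0 a long noncoding RNA, a pseudogene and a microRNA lie within the span of MOV10L1. The strand setting of the counting is not given in the sources used here, so reads of these genes may be included. MOV10, its relative in somatic tissues, had a level of 41.3 and 35.1 scaled RPKM and lay within 2-fold. The ratio of MOV10L1 was 14.98 times that of MOV10 [12.8 to 17.6].

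PLD6, the nuclease on the outer mitochondrial membrane that cuts precursors, had the fewest counts of the set at 3 months, 30, and had 719 at 9 months. Its level was 1.02 and 22.6 scaled RPKM, a 22.1-fold difference [15.4 to 33.0] with the widest interval of the set relative to its size. Of 4 relatives in the phospholipase D family that were looked for, PLD2, PLD3 and PLD4 were found and PLD1 matched no row. PLD3 was 3.20-fold lower [3.09 to 3.32] and PLD2 2.58-fold lower [2.30 to 2.89], or 1.88-fold and so within 2-fold with plain library totals. PLD4, with 64 and 35 counts, was 1.98 times as high in the 3-month library [1.29 to 3.08] and counted as within 2-fold, or as lower by 2.13-fold with upper-quartile scaling.

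ASZ1, an ankyrin repeat protein that anchors the processing machinery to mitochondria, differed far less than the nuclease at the same site. It had 199 and 673 counts, or 3.60 and 11.2 scaled RPKM, and was 3.12-fold higher [2.66 to 3.67]. The ratio of PLD6 was 7.09 times that of ASZ1 [4.73 to 10.9]. ASZ1 was the smallest difference among the 7 higher genes and the single one of them under 4-fold with TMM scaling. With plain library totals it was 4.27-fold higher.

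GTSF1, a small zinc finger protein that helps PIWI proteins cut their targets, showed the second largest difference. It had 48 and 2109 counts, or 2.30 and 93.3 scaled RPKM, and was 40.5-fold higher [30.5 to 55.2] in the 9-month library. The ratio of PIWIL1 was 8.54 times that of GTSF1 [5.43 to 13.5]. GTSF1L, its close relative, had 1 count at 3 months and 2150 at 9 months, a ratio of 1984 [356 to 78398].

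MAEL, a protein of germ granules and nuclei needed for transposon silencing, had 371 and 7261 counts. Its level was 6.80 and 123 scaled RPKM, 18.1-fold higher [16.3 to 20.1] in the 9-month library. It was the second highest gene of the set in both libraries. Its ratio could not be told from that of PLD6 by counting, as PLD6 stood at 1.22 times MAEL [0.836 to 1.86].

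HENMT1 adds the methyl group at the 3′ end that protects finished piRNAs. It was the highest gene of the set in the 3-month library, at 10.8 scaled RPKM from 461 counts, and had 12.4 scaled RPKM from 574 counts in the 9-month library. The ratio was 1.15 [1.01 to 1.30], within 2-fold, and between 1.07 and 1.57 over the other scalings. HENMT1 held 34.1% of the summed scaled RPKM of the 9 genes at 3 months and 2.73% at 9 months. Its ratio and that of PIWIL4 did not differ beyond counting error, at 1.13 times [0.914 to 1.39].

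The 9 genes did not differ between the libraries by a common factor. Of the 36 pairs of genes in the set, 34 had ratios that differed beyond counting error, a comparison that does not depend on how the libraries were scaled. The exceptions were PLD6 with MAEL and HENMT1 with PIWIL4. Counting error is the whole of the error in these intervals, and differences between calves or between pieces of tissue are not in them.

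The order of levels was also different. In the 3-month library it ran HENMT1, MAEL, ASZ1, PIWIL4, PIWIL2, GTSF1, MOV10L1, PLD6 and PIWIL1, and PIWIL4, PIWIL2 and GTSF1 did not differ from each other beyond counting error. In the 9-month library it ran PIWIL1, MAEL, GTSF1, PLD6, MOV10L1, PIWIL2, HENMT1, ASZ1 and PIWIL4, and HENMT1 and ASZ1 were the pair that did not differ (ratio 1.10 [0.986 to 1.24]). PIWIL1, MAEL and GTSF1 held 33.9%, 27.1% and 20.5% of the 9-month sum of 454 scaled RPKM. The 3-month sum was 31.7 scaled RPKM. These orders depend on the listed gene lengths, which for PIWIL1, PIWIL2, MOV10L1 and PLD6 are whole multiples of 3, as for 49.0% of all listed genes. Such lengths can come from models of the coding part alone, in which case reads elsewhere in the transcript were not counted.

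**Figure D3:**
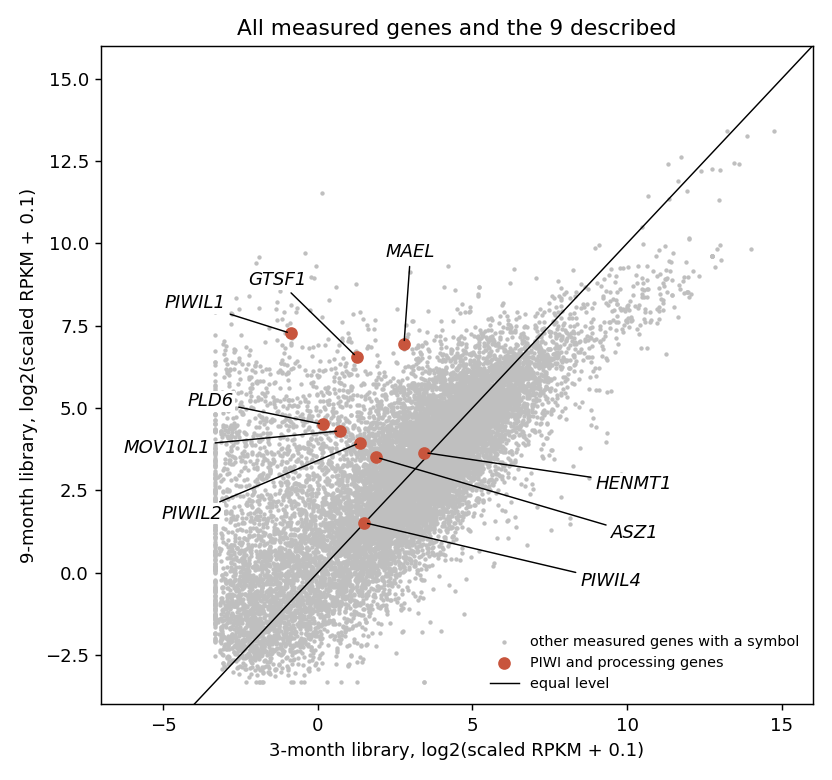
Level of every measured gene with a symbol (grey) and of the 9 genes (red) in the 3-month library on the horizontal axis and in the 9-month library on the vertical axis, both as log2(scaled RPKM + 0.1), with a line of equal level. PIWIL4 and HENMT1 lie on or next to the line, and PIWIL1 lies at the upper left, at 0.445 and 154 scaled RPKM.

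Genes with a known broad germ cell expression gave a scale for these differences. DDX4, an RNA helicase of germ cells at many stages and itself a piRNA pathway component, was at 9.61 and 165 scaled RPKM, 17.2-fold higher [15.98 to 18.5]. DAZL, an RNA-binding protein of germ cells, was 10.7-fold higher [9.99 to 11.4]. Germ cell markers differed widely among themselves, so the scale depends on the gene chosen. SYCP3, also counted above among the markers of meiotic prophase, was at 7.60-fold. TEX101, with 10 counts at 3 months, was at 222-fold. Against DDX4, the ratio of PIWIL1 was 20.1 times as large [14.4 to 28.8] and that of GTSF1 2.36 times [1.75 to 3.24]. MAEL at 1.05 times [0.923 to 1.20] and PLD6 at 1.29 times [0.885 to 1.93] did not differ from DDX4 beyond counting error.

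The other 5 genes of the set had smaller ratios than DDX4. MOV10L1 stood at 0.739 times the DDX4 ratio [0.624 to 0.879], PIWIL2 at 0.361 times [0.308 to 0.424] and ASZ1 at 0.181 times [0.152 to 0.217]. HENMT1 at 0.0668 times [0.0578 to 0.0773] and PIWIL4 at 0.0592 times [0.0493 to 0.0712] were the farthest below. Against DAZL, MOV10L1 lay on the other side, at 1.19 times the DAZL ratio [1.01 to 1.41], and MAEL at 1.69 times [1.49 to 1.92] and PLD6 at 2.07 times [1.43 to 3.11] lay above it. PIWIL2 at 0.581 times [0.497 to 0.681], ASZ1 at 0.292 times [0.245 to 0.349], HENMT1 at 0.108 times [0.0933 to 0.124] and PIWIL4 at 0.0953 times [0.0795 to 0.114] lay below DAZL as they did below DDX4.

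Of other genes without a Tudor domain, grouped here under piRNA biogenesis, 12 of 12 were higher in the 9-month library. The share of all measured genes was 28.0%. The median log2 ratio of these 12 genes was 3.50, and they included the transcription factors that switch on piRNA precursors in meiosis. MYBL1, the best known of these, went from 4.14 to 20.6 scaled RPKM and was 4.99-fold higher [4.398 to 5.67]. It is also counted above among the markers of late spermatocytes. Its ratio was smaller than that of PIWIL1, which was 69.4 times as large [49.0 to 101], and that of PIWIL2, which was 1.25 times as large [1.03 to 1.51]. Below MYBL1 stood PNLDC1, the enzyme that trims piRNAs, at 2.78-fold [2.15 to 3.63]. At the upper end after GTSF1L were the helicase DDX25 at 44.4-fold [39.3 to 50.2] and FKBP6, a co-chaperone in piRNA loading, at 24.3-fold [22.0 to 27.0].

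The Tudor domain genes of germ granules, which bind methylated PIWI proteins, were higher in 9 of 9 cases, with a median of 3.89. By the same rule 28.0% of all measured genes were higher. TDRD5 was 87.9-fold higher [70.4 to 111], TDRD6 35.7-fold [30.8 to 41.5] and TDRD9 32.2-fold [27.5 to 37.9]. At the lower end TDRD7 was 3.42-fold higher [3.19 to 3.66], TDRD12 5.05-fold [4.22 to 6.07] and TDRKH, which holds PIWI proteins at mitochondria, 5.37-fold [4.82 to 5.999]. The Tudor genes therefore spanned log2 ratios of 1.77 to 6.42, inside the span of 0.03 to 8.36 of the 9 genes.

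Genes of DNA methylation and silencing, a list not confined to the piRNA pathway, differed less. Among 8 measured genes, 5 passed as higher, 1 passed as lower and 2 stayed within 2-fold. The shares of all measured genes were 28.0%, 22.8% and 47.6%. The median log2 ratio of the 8 genes was 1.37. MORC1, a germ cell ATPase of transposon silencing, was 3.57-fold lower [2.69 to 4.79] in the 9-month library, from 214 to 65 counts. SPOCD1, which links PIWIL4 to DNA methylation, had 10.8 and 11.3 scaled RPKM and lay within 2-fold, as did the methyltransferase DNMT3A, at 12.5 and 8.06. SETDB1, a histone methyltransferase, was 3.12-fold higher [2.99 to 3.27], UHRF1, which maintains methylation, 3.06-fold [2.77 to 3.38] and the methyltransferase DNMT3B 2.94-fold [2.38 to 3.66]. DNMT3B had only 115 and 367 counts. The symbol DNMT3L matched no row and is not analysed here.

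The microRNA list of 11 genes, AGO genes included, had 4 higher, 1 lower and 6 within 2-fold. Of all measured genes, 28.0% were higher, 22.8% lower and 47.6% within 2-fold. Its median log2 ratio was 0.28. Behind AGO2, the nuclear export factor XPO5 was 2.91-fold higher [2.74 to 3.099] and DICER1, the enzyme that cuts microRNAs from their precursors, 2.24-fold [2.15 to 2.34]. DROSHA, which makes the first cut, lay within 2-fold at 5.65 and 3.43 scaled RPKM, and so did TNRC6A at 20.6 and 18.0.

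**Figure D4:**
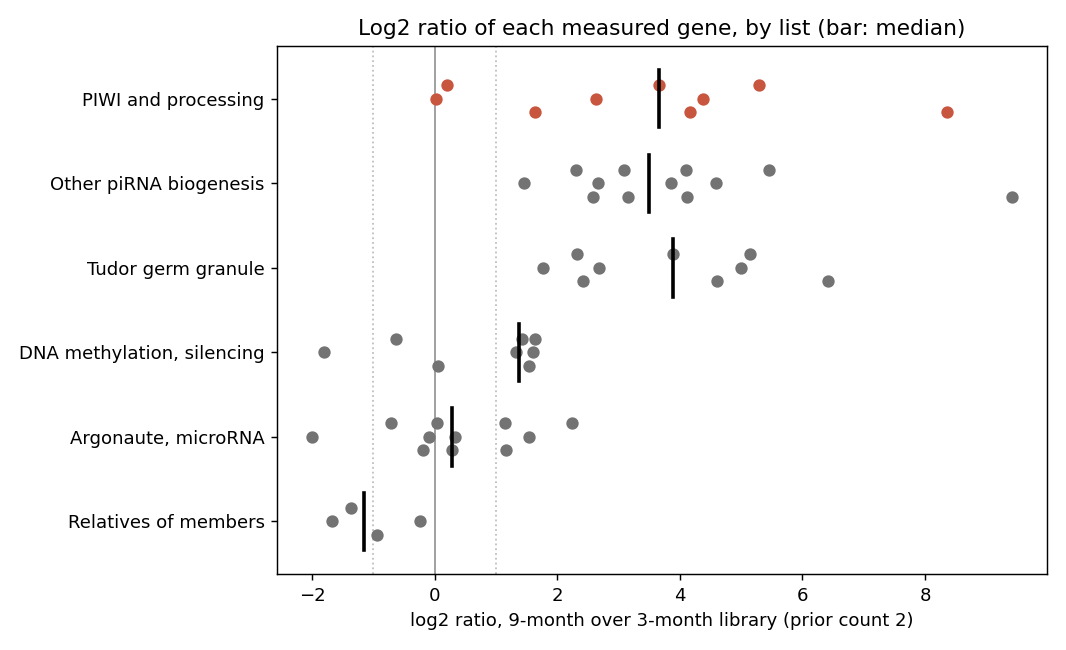
Log2 ratio of the 9-month to the 3-month library for each measured gene of the set (red) and of 5 other lists (grey), with a black bar at each list's median, a line at 0 and dotted lines at 2-fold. The 9 genes have a median of 3.65 and reach from 0.03 to 8.36, while the Argonaute and microRNA list has a median of 0.28.

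For each of the 9 genes, the 3 other named genes with the most similar pair of levels were found by distance in log2(scaled RPKM + 0.1) over the 2 libraries. With 2 libraries, such likeness is a description of level and difference and no more. Nearest to PIWIL1 were MGC157332, RSPH1 and FAM209B, the first at a distance of 0.14. RSPH1, part of the radial spokes of the sperm tail, had 0.380 and 155 scaled RPKM. Nearest to GTSF1 were PPP1R42, FAM71E1 and SPESP1, and nearest to PLD6 were ERICH3, KIF9 and DNALI1. KIF9 and DNALI1 are components of motors of cilia and flagella, at 1.02 and 21.4 and at 1.14 and 23.0 scaled RPKM.

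MAEL was closest to IL4I1, RNF6 and PTTG1, and MOV10L1 to ANKRD9, ZYG11A and TESK2. PTTG1, which holds back chromosome separation in dividing cells, was at 7.35 and 142 scaled RPKM. PIWIL2 was closest to PRR22, EFR3B and a second row with the symbol ACTB, and ASZ1 to MAP3K14, SYT9 and GNA14. PIWIL4 was closest to MARS2, a mitochondrial enzyme of protein synthesis, then MAOB and HIST1H2AG. HENMT1 was closest to RCC2, a regulator of chromosomes in mitosis, then CCDC112 and RIN3. The distances of MARS2 and RCC2 were below 0.01.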

How the data were processed

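RNA sequencing tables of 1 library from a calf aged 3 months and 1 from a calf aged 9 months were used. Per the submitters' processing notes, Trimmomatic 0.33, STAR 2.4.0 and genome build UMD3.1 were used. How reads were counted (program, annotation release, strand, multiple alignments) is not stated there. The deposited tables have no header. One deposited column holds raw counts per Ensembl gene, another the gene length in bases, and the last is in RPKM, equal to counts per kilobase relative to the table total, to within 0.000496%. Columns of other samples left unused numbered 0.

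Counts were scaled by TMM in edgeR 4.0.16 (R 4.3.3) on genes with at least 10 counts over both libraries, with factors of 0.855 and 1.17. CPM and scaled RPKM use these effective library sizes. Log2 ratios carry a prior count of 2. Ratios have 95% conditional binomial (Clopper-Pearson) intervals, ratios of ratios exact conditional odds ratio intervals, and levels Poisson intervals. All cover counting error only and may be too narrow, since reads from PCR need not be independent molecules. Intervals came from scipy 1.17.1 (Python 3.11.15, with pandas 2.3.3), and plots from matplotlib 3.10.9.

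The members, lists and alternatives were chosen with earlier results of these data known. The text names all 9 members, up to 3 genes with the highest and 3 with the lowest log2 ratio of each pathway list, DDX4, DAZL, MYBL1, PIWIL3 and MOV10, and the 3 nearest genes of each member; not all that the rule takes are printed. AGO1 and AGO3 are named outside this rule and were taken after their values were seen, as were the markers named beside the marker sums and SYCP3 and TEX101. A planned motif search in promoters was not made, and no sequences are shown.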

Additional observations from a re-analysis of the deposited data

How the results depend on the processing

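The log2 ratios shifted together by 0.45 when plain library totals were used, by 0.22 when reference genes set the scale, and by -0.10 with upper-quartile scaling, 0.02 with median-of-ratios factors and -0.01 with TMM computed without mitochondrially encoded and ribosomal protein genes. Under each of these scalings, 7 of the 9 genes were higher. The share of all measured genes that were higher, 28.0%, was counted with TMM scaling only. With TMM scaling and a required fold of 4, 6 of the 9 genes were higher. The median log2 ratio of the 9 genes was 4.10 with plain library totals and otherwise between 3.55 and 3.87, prior counts of 0.5 and 10 and minimums of 1 and 50 counts included. With TMM scaling and a required fold of 4, 0 of the 8 silencing genes and 1 of the 11 microRNA genes were higher. The share of all measured genes at that limit was 17.6%. The counts of the 2 lists were lower than at 2-fold because of the stricter limit itself. Of 45 ratios of the 9 genes under other scalings, 35 stayed within the counting interval and 10 did not, 7 of them with plain library totals. None of the 7 higher genes changed direction. No paired analysis was possible because each age had 1 library, and for the same reason no library could be left out. Depth limited PLD6, PIWIL1 and GTSF1 most, each with under 50 counts in the 3-month library.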
